A study of Mus musculus with 2 samples.

Results

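The 10 genes described here build the ribbon synapse of photoreceptors: Ctbp2, Bsn, Pclo, Rims2, Unc13b, Cacna1f, Cacna2d4, Slc17a7, Elfn1 and Lrit1. They were chosen by symbol from the 32285 features of 1 mouse eye library, with earlier results of these data known. Counts and medians of members set beside those of all genes are therefore a description. All 10 were measured, with at least 20 molecules each. The library, T1, was made with SeekSpace, a kit that profiles the RNA of single nuclei and records where on a capture chip each nucleus lay. The labels give its source as fresh-frozen, untreated C57BL/6J retina, from which 1 section of 1 eye was cut at 10 µm. The design compared mice heterozygous for the Prph2C213Y allele (Prph2C213Y/+) with wild-type controls of the same age and sex, and took spatial data from mice aged 6 months. T1 carries no genotype and no replicate label, so its expression and spatial-barcode libraries have no group, genotypes were not compared, and none was inferred from the values.

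The values are UMIs, which are molecule counts after removal of duplicate reads. The matrix held 17285 barcodes and 55843593 UMIs, and 16867 nuclei passed the filters, with a median of 1811 UMIs and 1042 genes. Clusters were named only from fixed marker genes that hold none of the 10, giving 17 classes of at least 50 nuclei. They included 5869 rod-like nuclei with a median of 1057 UMIs, 539 cone-like nuclei with 2452, 1586 bipolar-like nuclei with 3145.5 and 2118 amacrine-like nuclei with 4522. All 12 rod markers and all 11 cone markers led at least 1 cluster of their class. Support was weaker for 2 other classes. Single bipolar clusters were led by 3 to 10 of 14 markers, and single amacrine clusters by 3 to 8 of 12. Another 1824 nuclei, 10.8% of those kept, stayed unnamed in 6 clusters. The nuclei lay in 4 separate pieces of tissue of 3695 to 4570 nuclei, although the labels describe 1 section. Outside the retina, skeletal muscle-like, lens-like, adipocyte-like and surface epithelium-like nuclei were among the classes. Classes are called below by the cell type alone.

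Photoreceptors and bipolar cells release glutamate from ribbon synapses, in which a plate-like ribbon tethers vesicles above the release site and lets them fuse continuously as membrane voltage changes with light. RIBEYE, a product of Ctbp2, is the main ribbon protein, Bassoon and Piccolo (Bsn and Pclo) are large scaffold proteins of the active zone, and Bassoon anchors the photoreceptor ribbon. Rims2 and Unc13b act at vesicle docking and priming. Cacna1f encodes the pore of the L-type calcium channel that triggers release, Cacna2d4 its accessory alpha2delta subunit, and Slc17a7 the transporter VGLUT1, which fills vesicles with glutamate. Elfn1 and Lrit1 are membrane proteins with leucine-rich repeats at the contact with bipolar dendrites, where ELFN1 binds the bipolar receptor mGluR6.

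Promoter sequence was examined for the members in the RefSeq promoter table (GRCm38.p6, the 250 bases before each start). It held 8 of the 10 genes with 9 starts. Cacna2d4 and Rims2 were not matched. Each was searched on both strands for TAATCC (reverse GGATTA), a motif of CRX, a transcription factor of photoreceptors and bipolar cells, and for TGCTGA (reverse TCAGCA), a motif of the rod factor NRL taken as its half-site. Matches were found at 2 of the 9 starts. The first is the downstream start of Ctbp2 at chr7:133015248-133015497 on the minus strand, shown beside the upstream start at chr7:133081861-133082110, minus strand, which held neither motif. Both stretches lie inside the annotated gene, chr7:132986998-133124009. No match overlapped another. The second is Lrit1 at chr14:37054580-37054829 on the plus strand, the 1 member with both motifs. This stretch also lies inside the annotated gene, chr14:37042475-37064938. Matches are in capitals.
Ctbp2 downstream start: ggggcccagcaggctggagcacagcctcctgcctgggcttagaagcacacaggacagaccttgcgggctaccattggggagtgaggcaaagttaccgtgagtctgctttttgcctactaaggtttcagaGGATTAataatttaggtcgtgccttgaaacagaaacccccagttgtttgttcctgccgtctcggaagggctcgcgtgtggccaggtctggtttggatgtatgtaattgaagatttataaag
Ctbp2 upstream start: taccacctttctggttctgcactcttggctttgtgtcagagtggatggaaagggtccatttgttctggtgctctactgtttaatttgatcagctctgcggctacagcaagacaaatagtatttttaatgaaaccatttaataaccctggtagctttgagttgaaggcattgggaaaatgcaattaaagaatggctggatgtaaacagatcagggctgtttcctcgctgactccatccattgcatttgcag
Lrit1 start: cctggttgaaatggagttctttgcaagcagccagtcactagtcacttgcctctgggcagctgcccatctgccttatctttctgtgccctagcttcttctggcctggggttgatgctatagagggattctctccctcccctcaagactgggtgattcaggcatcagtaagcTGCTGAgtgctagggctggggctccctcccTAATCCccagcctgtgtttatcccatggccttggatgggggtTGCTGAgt
In Ctbp2 the match reads GGATTA, which is TAATCC on the other strand, 121 to 116 bases before the start. In Lrit1, TAATCC lay 50 to 45 bases before the start, and TGCTGA lay 80 to 75 and 8 to 3 bases before it. Of 32851 promoters of this length in the table, 6.25% held TAATCC, 16.1% held TGCTGA and 0.962% held both, so 2 matching starts of 9 is a description only.

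Levels were expressed as CPM, the share of a class's UMIs taken by a gene on the usual CPM scale, with all its nuclei pooled. The range in parentheses after a level is its exact Poisson 95% interval. A ratio is between 2 pooled CPM values, with its own exact 95% interval in parentheses, and is called when the bound nearest 1 is at least 2-fold. With 1 library there are no replicates and no p-values, and these intervals cover counting error only. Each gene is compared across classes, not with other genes, because CPM does not correct for gene length.

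The 10 genes fell into 3 kinds of pattern. Cacna1f, Cacna2d4, Slc17a7 and Lrit1 were high in rods, cones and bipolar cells and low in the 14 other classes. Elfn1 was high in rods and cones and at most 18.1 CPM in the named bipolar subtypes. Ctbp2, Bsn, Pclo, Rims2 and Unc13b were present in photoreceptors and bipolar cells and also had at least 1 other class within 3-fold of them. A gene was counted as high in all 3 ribbon-bearing classes when the lower bound in each of them was 2-fold or more above the upper bounds of all other classes. That held for 4 of the 10 members and for 13 of the 18768 genes measured, a background of 0.0693%. The rule was written after the levels had been seen. The narrower count, high in both rods and cones above every other class, bipolar cells included, held for 1 member, Elfn1, against a background of 0.943% (177 genes). With each nucleus thinned to 500 UMIs, which leaves fewer molecules, these counts were 1 and 0.

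**Figure D1:**
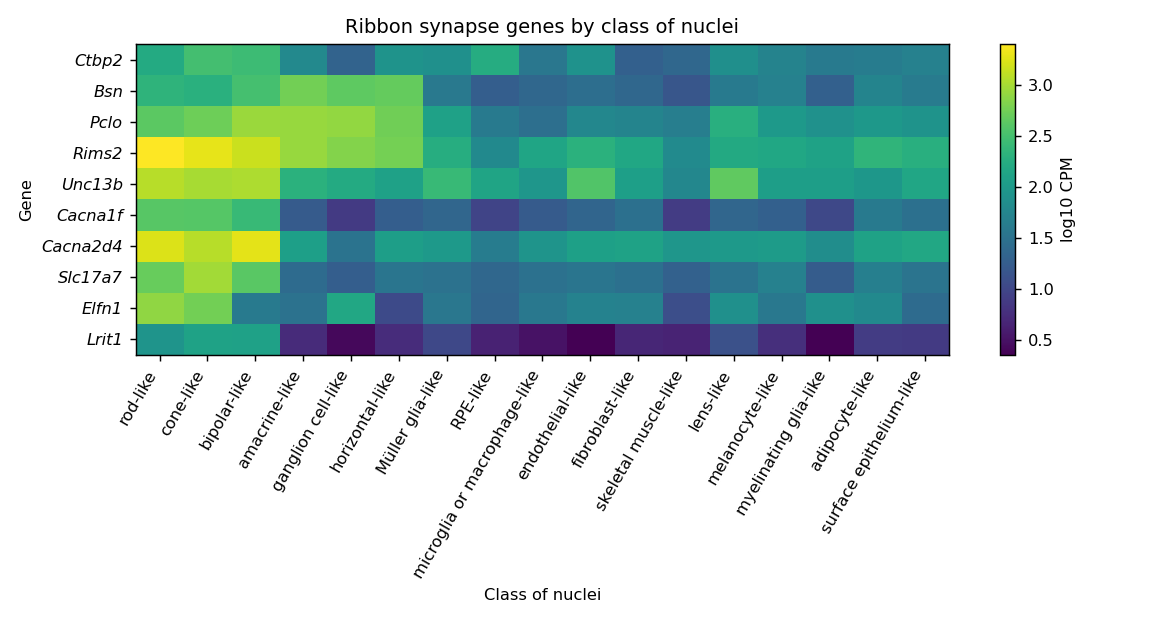
Pooled level of each of the 10 genes (rows) in the 17 classes of nuclei (columns), as log10 CPM on the colour scale. All genes share the scale, and each row is described against its own other columns. Cacna1f, Cacna2d4, Slc17a7 and Lrit1 are brightest in the rod-like, cone-like and bipolar-like columns, and Elfn1 in the first 2 of these. Bsn, Pclo and Rims2 are brightest across all 6 columns of neurons.

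Gene positions below are those of RefSeq's annotation of GRCm38.p6, matched by symbol, and span each gene from end to end. Of the scaffold genes, Ctbp2 was measured at 311 CPM in cones (288 to 337), 279 in bipolar cells (265 to 293), 174 in RPE (160 to 188) and 166 in rods (157 to 175). The intervals of cones and bipolar cells overlapped, as did those of RPE and rods, while the next class, horizontal cells at 83.9 CPM, lay apart from rods. The counts are for the whole gene and do not separate RIBEYE from the widely expressed corepressor CtBP2, the other product of the gene. In the 333 RPE nuclei at or below the class median of rod marker share, Ctbp2 was 148 CPM from 252 UMIs. Ctbp2 was lowest in fibroblasts, at 19.4 CPM, and in ganglion cells, at 20.9 CPM.

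Bsn (chr9:108096022-108190419) and Pclo (chr5:14514906-14863465) were the 2 members with levels in neurons without ribbons as high as in photoreceptors or higher. Bsn was highest in amacrine cells at 561 CPM (547 to 576), followed by horizontal cells at 483, ganglion cells at 449, bipolar cells at 321, rods at 219 (209 to 229) and cones at 193 (174 to 213). The intervals overlapped between horizontal and ganglion cells and between rods and cones, and the other neighbours in that order lay apart. Pclo was 889 CPM in bipolar cells (864 to 915), 852 in amacrine cells (834 to 870), 803 in ganglion cells, 555 in horizontal cells, 541 in cones (509 to 573) and 427 in rods (413 to 441). Rods were therefore the lowest of the 6 neuronal classes for Pclo, and rods and cones the lowest for Bsn. In the 11 non-neuronal classes Bsn stayed between 14.7 and 52.9 CPM, and Pclo between 29.7 CPM and the 189 CPM of the lens.

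Rims2 (chr15:39198286-39684372), which encodes a RIM protein of the active zone, was highest in rods and cones. It was 2535 CPM in rods (2501 to 2569), 1941 in cones (1881 to 2002), 1435 in bipolar cells (1403 to 1468), 861 in amacrine cells, 687 in ganglion cells and 587 in horizontal cells. Every neighbouring pair of these 6 classes lay apart. The highest of the other 11 was 225 CPM in adipocytes, or 8.89% of the rod level. At 500 UMIs per nucleus, 69.9% of rods (68.7 to 71.1%), 60.6% of cones (56.3 to 64.7%) and 47.9% of bipolar cells (45.4 to 50.4%) had at least 1 Rims2 UMI, with exact binomial 95% intervals. The share was 3.52% (1.94 to 5.83%) of microglia or macrophages, which should lack the gene. Without this thinning the shares were 87.6, 94.99, 90.9 and 7.98%, at median depths of 1057, 2452, 3145.5 and 1684 UMIs.

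Unc13b (chr4:43046193-43264873), which encodes the priming factor MUNC13-2, was within a narrow range over the 3 ribbon-bearing classes: 1197 CPM in rods (1173 to 1220), 1078 in bipolar cells (1050 to 1106) and 1023 in cones (979 to 1067). It was also measured in the lens at 455 CPM (409 to 505) and in endothelium at 373 CPM (334 to 415), above amacrine cells at 201 CPM. In nuclei with no rod marker UMI, Unc13b was 467 CPM in 140 lens nuclei and 341 CPM in 313 endothelial nuclei. The part of free RNA in these levels was not tested. Ganglion cells were at 166 CPM.

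The calcium channel genes Cacna1f (chrX:7607103-7635196) and Cacna2d4 (chr6:119236524-119352407) were well below the ribbon-bearing classes everywhere else: the lowest of the 3 stood 6.25 times above the highest other class for Cacna1f and 7.75 times for Cacna2d4. Cacna1f was 414 CPM in rods (400 to 428), 399.7 in cones (373 to 428) and 257 in bipolar cells (244 to 271). The next class, adipocytes, was at 41.1 CPM (25.5 to 62.9), and ganglion cells were lowest at 7.35 CPM. Cacna2d4 was highest in bipolar cells at 1915 CPM (1878 to 1952), then rods at 1758 (1730 to 1787) and cones at 1193 (1146 to 1241), and the next class, surface epithelium, was at 154 CPM (111 to 209). For Cacna1f the intervals of rods and cones overlapped, whereas the 3 classes lay apart for Cacna2d4.

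Slc17a7 (chr7:45163921-45176139) was highest in cones, at 959 CPM (917 to 1002), with rods at 491 (476 to 506) and bipolar cells at 417 (400 to 435). The next class was melanocytes at 48.7 CPM (31.5 to 72.0). With each nucleus thinned to 500 UMIs, 35.3% of cones (31.3 to 39.5%), 19.9% of rods (18.9 to 21.0%) and 19.6% of bipolar cells (17.6 to 21.6%) had at least 1 Slc17a7 UMI, against 0.754% (0.156 to 2.19%) of microglia or macrophages. Before thinning the shares were 85.9, 39.3, 63.3 and 4.46%.

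The adhesion genes Elfn1 (chr5:139907591-139974725) and Lrit1 (chr14:37042475-37064938) differed from each other in bipolar cells. Elfn1 was 779 CPM in rods (761 to 799) and 575 in cones (543 to 609), followed by ganglion cells at 153 (140 to 167). In ganglion cells at or below the class median of rod marker share it was also 153 CPM. Lrit1 was 129 CPM in cones (114 to 146), 125 in bipolar cells (115 to 134) and 85.3 in rods (79.1 to 91.8), with the lens next at 12.7 CPM (6.10 to 23.4). The Lrit1 intervals of cones and bipolar cells overlapped.

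Elfn1 was pooled at 40.8 CPM in bipolar nuclei, from 216 UMIs. Of these, 177, or 81.9%, came from the 286 bipolar nuclei that could not be given a subtype, 130 of which formed a sub-cluster led by rod genes. Others of the 286 lay in a sub-cluster of 106 nuclei with 3 leading cone markers and in 1 of 22 nuclei with 5 leading fibroblast markers. The 12 rod markers summed to 5949 CPM in those 286 nuclei, against 327, 824 and 296 CPM in rod bipolar, ON cone bipolar and OFF cone bipolar nuclei. In the 3 named subtypes Elfn1 was 1.53 CPM (2 UMIs), 18.1 CPM (27 UMIs) and 7.19 CPM (10 UMIs). In the 793 bipolar nuclei at or below the class median of rod marker share it was 3.24 CPM from 8 UMIs.

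Rod marker RNA was found at a low level in every class. The part of free RNA, from rods or other cells, in the low member levels outside photoreceptors was not tested. In the 11 non-neuronal classes the summed rod markers stood at 2.26 to 6.58% of the rod level, with a median of 4.56%. Over the same classes the median was 5.91% for Rims2, 5.45% for Cacna1f and 5.78% for Cacna2d4. It was 6.53% for Slc17a7, 4.76% for Elfn1 and 5.69% for Lrit1. These 6 medians lay close to that of the rod marker sum. The median was 9.97% for Unc13b, 12.9% for Bsn, 18.6% for Pclo and 29.4% for Ctbp2. Single classes of the 6 went higher than the rod marker sum did, up to 8.76% for Cacna2d4 in surface epithelium and 14.9% for Lrit1 in the lens. In 222 skeletal muscle nuclei at or below the class median of rod marker share, Cacna2d4 was 79.9 CPM, against 90.8 CPM in all. In 140 lens nuclei with no rod marker UMI, Elfn1 was 25.0 CPM, against 77.6 CPM in all. In 1181 amacrine nuclei with no rod marker UMI, Cacna1f was 4.21 CPM and Slc17a7 7.82 CPM, against 16.8 and 25.9 CPM in all amacrine nuclei, while Bsn was 565 CPM and Pclo 861 CPM.

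Over single nuclei thinned to 500 UMIs, rods carried a mean of 2.78 of the 10 genes, cones 2.74 and bipolar cells 2.46. Amacrine cells carried 1.07, ganglion cells 0.997 and horizontal cells 0.765, and the non-neuronal classes 0.138 to 0.432. None of the 10 was seen in 2.68% of rods, 3.18% of cones and 3.98% of bipolar nuclei at this depth, compared with 91.5% of microglia or macrophages. Thinning left out 243 rods, 4 cones, 29 bipolar cells and 28 microglia or macrophages that were shallower. Before it, the means were 4.54 in rods, 6.86 in cones, 6.15 in bipolar cells and 0.505 in microglia or macrophages.

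Rods and cones were then compared directly, and 0 of the 10 genes passed the 2-fold rule in either direction. The background was 5.75% of genes called higher in cones and 1.27% called higher in rods. The median log2 ratio of cones over rods was -0.11 over the members and -0.04 over all genes tested. Slc17a7 came closest, at 1.95 times the rod level in cones (1.85 to 2.06), and Ctbp2 followed at 1.88 times (1.71 to 2.06). Lrit1 was 1.51 times (1.31 to 1.75) and Pclo 1.27 times (1.18 to 1.36) the rod level. In the other direction, cones had 0.678 of the rod level of Cacna2d4 (0.650 to 0.708), 0.738 of Elfn1 (0.693 to 0.785), 0.766 of Rims2 (0.740 to 0.792) and 0.855 of Unc13b (0.815 to 0.896). Bsn stood at 0.881 (0.788 to 0.983), and the Cacna1f interval included 1, at 0.967 (0.895 to 1.04).

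The cone nuclei also held much rod RNA: their rod marker sum was 18271 CPM, 72.1% of that in rods. In the 270 cone nuclei at or below the class median of rod marker share, where that sum was 599 CPM, Ctbp2 was 367 CPM, Slc17a7 934, Pclo 596, Elfn1 596, Rims2 1839 and Cacna2d4 1036. These 6 genes kept their side of the rod level in cone nuclei with little rod RNA, as did Bsn at 190.2 CPM, Unc13b at 1023 and Lrit1 at 113. Cacna1f, at 429 CPM, lay above the 414 CPM of rods there, where it lay below in all cones. Intervals are not given for these nuclei, and the values rest on 114 UMIs for Bsn, 257 for Cacna1f and 68 for Lrit1. The Bsn and Cacna1f values were close to the rod levels of 219 and 414 CPM. The rods were not limited in this way, and their cone marker sum was 2102 CPM. Again 0 members were called, but the share of all genes called is not given for these nuclei.

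**Figure D2:**
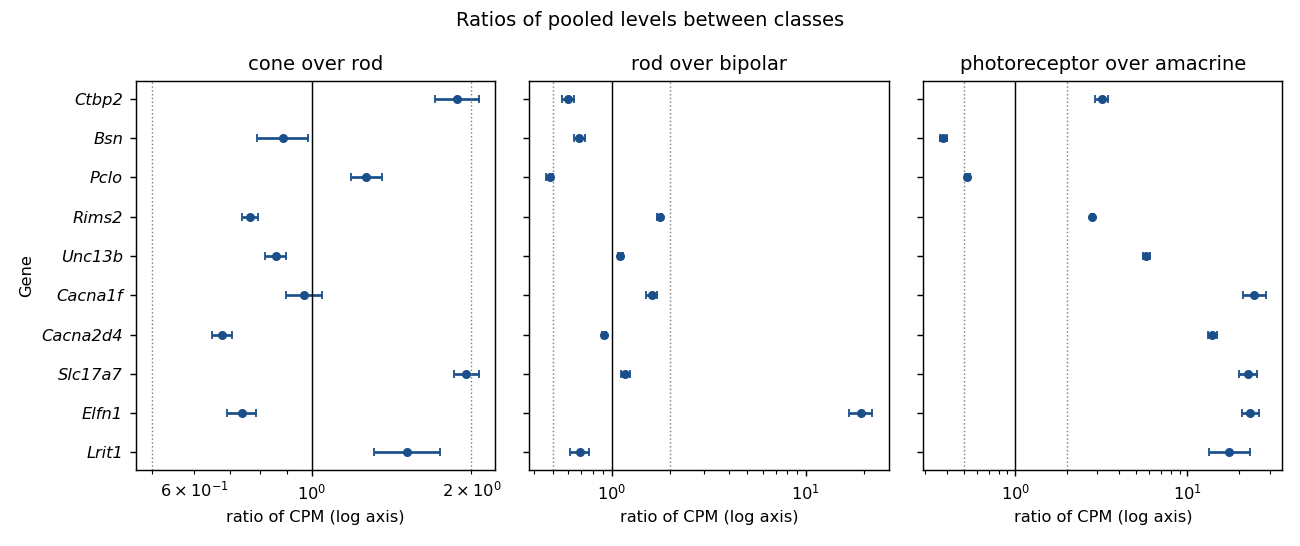
Ratio of pooled CPM, on a log axis, for each gene in 3 comparisons, cone over rod, rod over bipolar and photoreceptor (rod and cone pooled) over amacrine, with exact 95% intervals as bars. The solid line marks equal levels and dotted lines mark 2-fold. All 10 points lie inside the 2-fold lines for cone over rod, Elfn1 stands at 19.1 for rod over bipolar, and Bsn and Pclo lie left of 1 for photoreceptor over amacrine.

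Against bipolar cells, 1 of the 10 was called higher in rods, Elfn1 at 19.1-fold (16.7 to 22.0), where 10.8% of all genes were called. In this and the cone comparison the bipolar class keeps the 286 nuclei without a subtype, which held 177 of its 216 Elfn1 UMIs. None was called higher in bipolar cells, where 18.1% of genes were. Pclo was at the edge, with 2.09 times the rod level in bipolar cells (1.996 to 2.18), and 1 member was called in that direction when piece 1 of the tissue was left out and under 5 other settings. Rims2 was 1.77 times (1.72 to 1.81) and Cacna1f 1.61 times (1.51 to 1.71) higher in rods, and Ctbp2 was 1.68 times (1.56 to 1.81) higher in bipolar cells. Cones over bipolar cells gave 2 calls, Elfn1 at 14.1-fold (12.2 to 16.4) and Slc17a7 at 2.30-fold (2.16 to 2.44), with a background of 8.69%. Bipolar over cones gave 0 calls, with a background of 13.4%.

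Against amacrine cells, which release mainly GABA or glycine from conventional synapses, 8 of the 10 genes were called higher in photoreceptors, with a background of 12.8%. The ratios were 24.5 for Cacna1f (21.0 to 28.6), 23.1 for Elfn1 (20.7 to 25.9), 22.5 for Slc17a7 (19.9 to 25.5), 17.4 for Lrit1 (13.3 to 23.2) and 13.9 for Cacna2d4 (13.1 to 14.8). Unc13b was 5.78, Ctbp2 3.17 and Rims2 2.81 times higher. Bsn was called in the other direction, 2.62 times higher in amacrine cells (2.50 to 2.76), with a background of 23.2%, and Pclo was 1.90 times higher there (1.83 to 1.97), short of a call. The members' median log2 ratio was 2.61, against -0.01 over all genes tested.

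Bipolar cells are divided into rod bipolar cells, which receive from rods, and ON and OFF cone bipolar cells, which depolarise and hyperpolarise to light. The 413 rod bipolar, 493 ON cone bipolar and 394 OFF cone bipolar nuclei, at median depths of 3235, 2954 and 3305.5 UMIs, carried the members at different levels. Unc13b was 1725 CPM in rod bipolar (1654 to 1797), 753 in ON (710 to 798) and 942 in OFF cells (892 to 994). Pclo ran the other way, at 719 CPM in rod bipolar (674 to 767), 836 in ON (790 to 883) and 1214 in OFF cells (1156 to 1273). Slc17a7 followed the same order as Pclo, at 279, 417 and 509.7 CPM.

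Cacna2d4 had the order rod bipolar, ON and OFF, at 2232 (2152 to 2315), 1906 (1836 to 1977) and 1560.2 CPM (1495.2 to 1627). Rims2 was highest in ON cells, at 1720.4 CPM (1655 to 1788), with 1296 in OFF and 1092 in rod bipolar cells. Ctbp2 was also highest in ON cells, at 327 CPM (299 to 357), with OFF at 256 and rod bipolar at 239. Bsn was 265 CPM in rod bipolar, 372 in ON and 354 in OFF cells. Cacna1f, at 224, 272 and 233 CPM, and Lrit1, at 129, 138 and 121 CPM, were the members with the narrowest range here, and their intervals overlapped between the 3 subtypes.

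In rod over pooled cone bipolar nuclei, 0 members were called higher, with a background of 2.75%. Unc13b had 2.04 times the cone bipolar level, but its lower bound was 1.93. In the other direction 1 was called, Elfn1, with a background of 9.25%. That call rests on 2 UMIs against 37, a ratio of 8.37 (2.16 to 71.6), and it was lost without piece 3, without piece 4 and under several other settings.

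**Figure D3:**
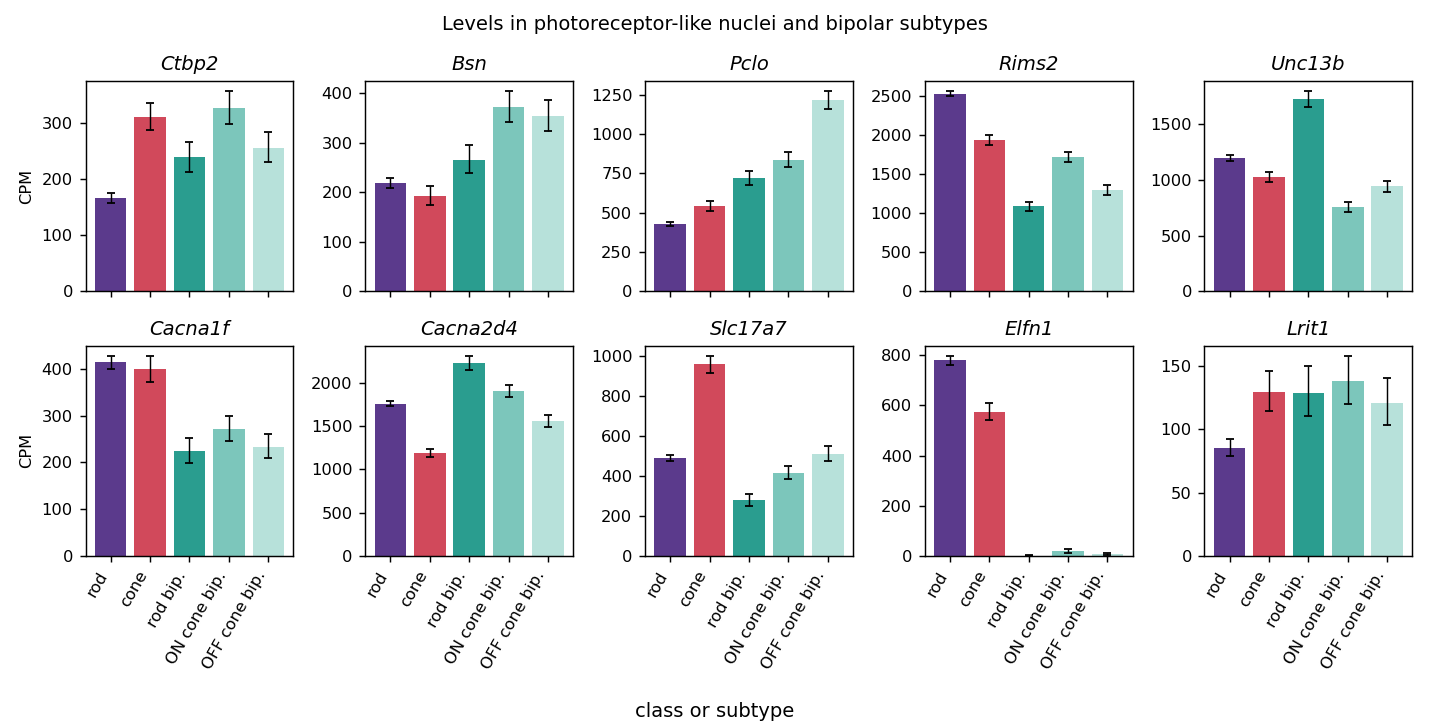
Pooled level (CPM, axis from 0) of each gene in rod-like, cone-like, rod bipolar, ON cone bipolar and OFF cone bipolar nuclei, with exact Poisson 95% intervals as bars. Unc13b and Cacna2d4 are highest in rod bipolar nuclei and Pclo in OFF cone bipolar nuclei, and Elfn1 is near 0 in the 3 bipolar subtypes.

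Rods themselves fell into 5 clusters, formed without the 10 genes. In 4 of them the rod marker sum was 23194 to 24126 CPM, and in the 584 nuclei of the last it was 40259 CPM. Slc17a7 in that cluster was 809.6 CPM (751 to 872), against 432, 441, 468 and 470.02 CPM in the others. Rims2 was lower there, at 1928 CPM against 2519 to 2685, as were Elfn1, at 626 against 768 to 803, and Unc13b, at 967 against 1208 to 1235. Cacna2d4 was 1405 CPM there and highest, at 2118 CPM, in the cluster of 237 nuclei. An unnamed cluster of 128 nuclei with rod and cone markers had Slc17a7 at 1167 CPM. Its nuclei held a median of 2653 UMIs, and the part of mixed nuclei in its levels was not tested.

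The 4 pieces of tissue carry no group in the labels and are described side by side. Slc17a7 in rods was 485, 485, 455 and 524 CPM in pieces 1 to 4, and in cones 1071, 951, 866 and 968 CPM, so the lowest piece for cones was above the highest for rods. Ctbp2 in rods was 166, 166, 163 and 167 CPM, and in cones 365, 311, 309.8 and 267 CPM, again without overlap. Elfn1 in rods was 753, 738, 799 and 822 CPM, in cones 608, 505, 626 and 605 CPM, and in bipolar cells 32.2, 36.9, 58.0 and 37.2 CPM. The bipolar interval of piece 3 (45.7 to 72.6) lay apart from that of piece 1 (24.1 to 42.3), and the ratio of rods over bipolar cells ran from 13.8 to 23.4 across pieces. These bipolar nuclei include those without a subtype. Pclo in rods was 449.5, 433, 415 and 409.9 CPM, below the 819 to 929 CPM of bipolar cells in all 4 pieces.

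The highest over the lowest piece in rods gave ratios from 1.03 for Ctbp2 to 1.26 for Lrit1. None was called, against a background of 1.39%. The ratio of cones over rods was above 1 in 4 of 4 pieces for Ctbp2, Slc17a7, Lrit1 and Pclo, and below 1 in 4 of 4 for Rims2, Unc13b, Cacna2d4 and Elfn1. It fell on both sides for Bsn and Cacna1f, above 1 in 1 piece and below in 3. Across pieces the cone over rod ratio ran from 1.85 to 2.21 for Slc17a7 and from 1.60 to 2.20 for Ctbp2.

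**Figure D4:**
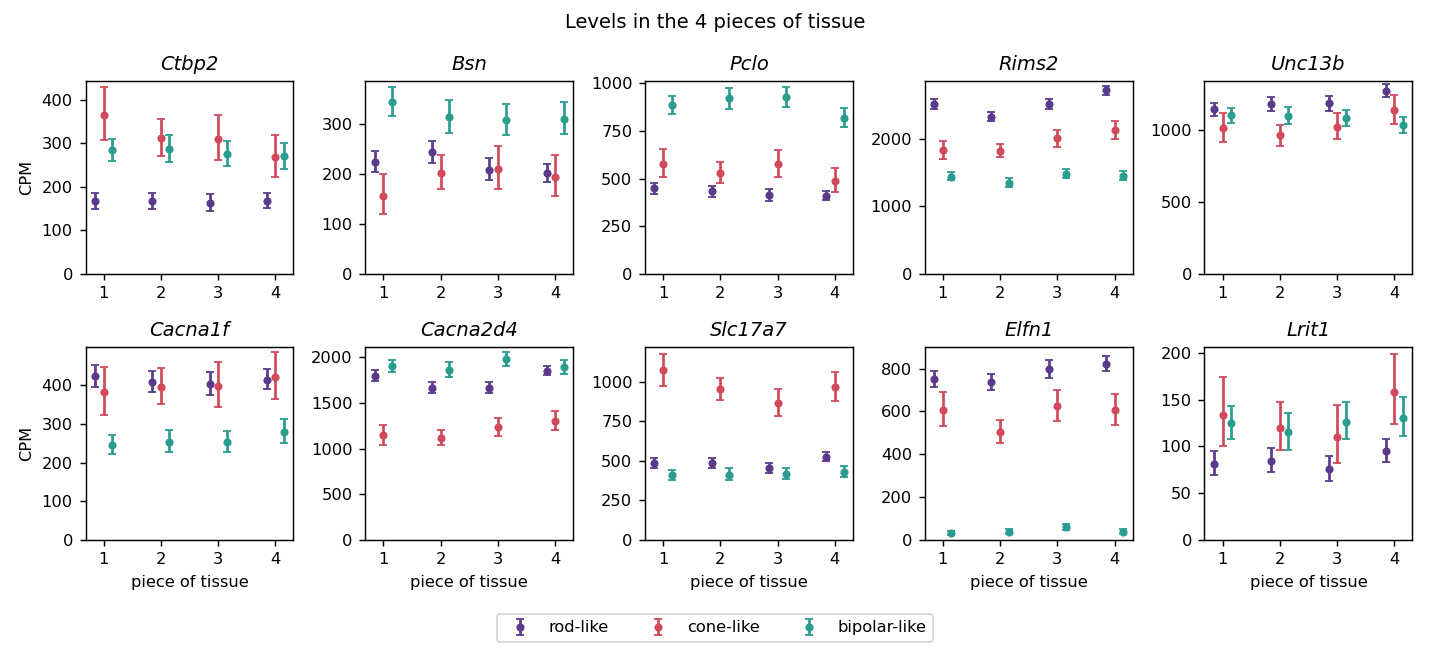
Pooled level (CPM, axis from 0) of each gene in rod-like, cone-like and bipolar-like nuclei of the 4 pieces of tissue, with exact Poisson 95% intervals as bars. Cones lie above rods for Ctbp2 and Slc17a7 and below them for Rims2 and Cacna2d4 in every piece, and bipolar nuclei lie near 0 for Elfn1.

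A further 37 genes of the same synapse, also chosen with earlier results of these data known, served as the wider pathway. Of these, 7 were higher in both rods and cones than in every other class by the 2-fold rule, against a background of 0.943%. They were Tulp1, a photoreceptor protein linked to the ribbon synapse, at 1054 CPM in rods and 1368 in cones, Egflam, which encodes pikachurin of the synaptic cleft, at 1121 and 910.1, Cabp4, a calcium-binding modulator of the channel, at 197 and 190.1, and Mpp4, a presynaptic scaffold, at 992 and 972. The others were Dlg4, which encodes PSD-95, at 1463 and 1292, Cplx4, a complexin of ribbon synapses, at 517 and 323, and Unc119 at 464 and 540.1 CPM. Slc1a7, a glutamate transporter of photoreceptors and bipolar cells, was the 1 pathway gene high in rods, cones and bipolar cells together, at 407, 456 and 337 CPM. The background for that rule, written after the levels had been seen, was 0.0693%.

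Between photoreceptors, 6 of the 35 pathway genes with enough UMIs were called higher in cones and 0 in rods, with backgrounds of 5.75 and 1.27%. Elfn2, a relative of Elfn1, had the highest ratio at 29.0-fold (19.9996 to 43.5), with 112 CPM in cones and 3.84 in rods. Cplx3, a complexin, was 11.1-fold higher (8.53 to 14.6), Erc1 5.10-fold (3.10 to 8.46), the glutamate transporter gene Slc1a2 2.75-fold (2.64 to 2.87), Lrit3 2.63-fold (2.36 to 2.94) and the vesicle protein gene Sv2a 2.61-fold (2.11 to 3.21). The list's median log2 ratio was 0.23, against -0.04 over all genes.

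Between rods and bipolar cells the pathway divided, with 10 of 36 called higher in rods and 12 in bipolar cells, against backgrounds of 10.8 and 18.1%. Relatives of members were called in both directions, and they are named here after their values had been seen. Lrit3, a relative of Lrit1, was 14.2-fold higher in rods (10.2 to 20.3), at 99.2 CPM against 6.99 in bipolar cells. Cacna1d, another L-type channel gene, was 805 CPM in bipolar cells and 6.73 in rods, beside Cacna1f at 257 and 414 CPM. Rims1 was 261 CPM in bipolar cells and 7.69 in rods, Unc13c 1092 and 10.5, Cacna2d3 641 and 6.13, and Elfn2 282 and 3.84. Between photoreceptors and amacrine cells 15 of 37 were called higher in photoreceptors and 14 in amacrine cells, with backgrounds of 12.8 and 23.2%. The list's median log2 ratio was 0.05, where that of the members was 2.61 and that of all genes -0.01.

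The genes most like each member were found by Pearson's r of log2(CPM + 10) over the 17 classes, among 13567 genes. The classes share 1 library, its depth and its free RNA, so r is a description. Cacna1f was most like Slc1a7 (r = 0.983) and Slc17a7 (0.979), Cacna2d4 like Cacna1f (0.971) and Slc1a7 (0.971), Slc17a7 like Cacna1f and Slc1a7 (0.978), and Lrit1 like Slc17a7 (0.971) and Cacna1f (0.959). For these 4 members the 2 nearest genes were drawn from Cacna1f, Slc17a7 and Slc1a7. These genes had all been counted above as high in rods, cones and bipolar cells from the same class levels. Their likeness is therefore not a separate result.

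The other 6 had different neighbours. Bsn was most like Unc13a (r = 0.981) and Gdap1l1 (0.968), and Pclo like Xkr6 (0.977) and Sncb (0.962). Rims2 was most like Mir124a-1hg (0.984) and Mir124-2hg (0.980), host genes of the neuronal microRNA miR-124. Elfn1 was most like March1 (0.931) and Zfyve28 (0.920), which were at 3620.4 and 869 CPM in rods and 285 and 93.5 CPM in bipolar cells. Ctbp2, with Glo1 (0.886) and Gm11944 (0.878), and Unc13b, with Lpcat1 (0.887) and Pan2 (0.879), had the lowest top values.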

How the data were processed

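The authors deposited an expression matrix of raw UMI counts per gene and barcode, and a table with the chip coordinates of each barcode in other units, whose length is unstated. STAR, fastp and Seurat 4.1.1 are listed with the build mm10 in the submitters' processing notes. Not given in the sources used here: annotation release, strand, intron counting and cell calling. Genes that overlap others are therefore uncertain. Clustering used scanpy 1.11.5 with igraph 0.11.9 and scikit-learn 1.9.0 in python 3.11.15. Intervals came from scipy 1.17.1, with pandas 2.3.3 and numpy 2.4.6.

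Nuclei had at least 200 genes and under 10% mitochondrial UMIs. Scrublet marked 0 nuclei. At 3 counts of the total this allows up to 0.0178%, under the 0.5% taken as working, so doublets remain. Counts scaled to 10000 per nucleus, 2000 variable genes, 30 components, 15 neighbours and Leiden resolution 1 gave 38 clusters, with the members and pathway genes left out. A cluster was named when at least 3 markers led it at 3-fold with at least 10 UMIs and the second class scored at most 0.5 of the best. This rule, the bipolar subtype rule, the cuts between pieces, the count over rods, cones and bipolar cells, and the setting near RPE were chosen after seeing the data. Members and lists were chosen with earlier results of these data known.

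Genes with at least 20 UMIs were compared. The ratio calls were run on Poisson counts simulated from pooled class levels, which is the model their intervals assume. Such counts hold no spread between nuclei, mixed nuclei or free RNA, so these were not tested. Named genes are all members, up to 8 pathway genes high in rods and cones, up to 6 called between rods and cones, and the 2 most like genes per member, among genes of at least 200 UMIs. Intervals are exact, at 95%.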

Additional observations from a re-analysis of the deposited data

How the results depend on the processing

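No paired analysis was possible because neither T1 library belongs to a group. With 1 library, no setting measures the spread between animals, and the pieces of tissue are not replicates. The counts of members that moved were these, and the cause was not tested unless given. Members called higher in bipolar cells than in rods went from 0 to 1 at resolution 2, with at least 500 genes, without the 5% highest Scrublet scores, with non-rod classes limited to low rod marker share, with totals without mitochondrial genes and Gm42418, and without piece 1. Members called higher in cone than rod bipolar cells went from 1 to 0 at resolution 0.5, without the 5% highest Scrublet scores, at low rod marker share, thinned to 500 UMIs, with the 3-fold rule, with at least 50 UMIs (which leaves Elfn1 untested), without piece 3, without piece 4 and with the nuclei near RPE, an alternative chosen after seeing the data. Members called higher in rod than cone bipolar cells went from 0 to 1 with members and pathway genes kept in clustering. Members called higher in rods than bipolar cells went from 1 to 2 at resolution 0.5. Members called higher in cones than bipolar cells went from 2 to 1 when thinned to 500 UMIs and with the 3-fold rule. Members called higher in amacrine cells than photoreceptors went from 1 to 0 with the 3-fold rule. Thinned to 500 UMIs, which leaves fewer molecules, the members high in both rods and cones went from 1 to 0 and those high in rods, cones and bipolar cells from 4 to 1.

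The other 184 of 206 alternative counts stayed within 1.5 times the main count. Of 300 alternative ratios and 450 alternative levels of single genes, 38 and 63 moved beyond their intervals, and 0 called values changed direction. The moves were uneven over the settings, each with 50 such values. At resolution 0.5, 23 moved, as did 23 when thinned to 500 UMIs. At low rod marker share 17 moved, and 12 with totals without mitochondrial genes and Gm42418. The 3-fold rule and the floor of 50 UMIs cannot move a pooled level or ratio, and 0 moved there. Depth limits Elfn1 in the bipolar subtypes and Lrit1 in the non-neuronal classes, where few UMIs were counted.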

Other observations

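An unnamed cluster of 387 nuclei carried both bipolar and Müller glia markers, with a median of 8231 UMIs. Its nuclei held Cacna2d4 at 1029 CPM, Rims2 at 949.6, Pclo at 703, Unc13b at 667, Bsn at 306, Slc17a7 at 267, Ctbp2 at 208, Cacna1f at 146, Lrit1 at 72.3 and Elfn1 at 22.3 CPM. All 10 values were below those pooled over the bipolar class, although the Bsn intervals overlapped. Elfn1 was above its levels in the 3 named bipolar subtypes, although its interval overlapped that of ON cone bipolar nuclei. Bsn was above its level in rod bipolar nuclei, again with overlapping intervals.

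Within the rods, 73.3% of nuclei lay near RPE-like nuclei, within 1000 coordinate units of at least 3 of them. In these rods the highest over lowest piece ratio ran from 1.04 for Pclo and Cacna1f to 1.25 for Bsn. None was called, but the share of all genes called is not given for these rods, so this is a description only.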
